A study of Mus musculus with 42 samples.

Results

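Heat shock chaperones are proteins that help other proteins fold, keep unfolded ones from clumping and hand them on for repair or removal. The set described here was defined by name: Hspa1a, Hspa1b, Hspa8, Hspa5, Hspb1, Dnajb1, Hsph1, Hsp90aa1, Hsp90ab1 and Hsf1, which encodes the transcription factor that switches many of these genes on. The platform annotation assigned 22 of the 45101 probe sets to 8 of these 10 genes. Hsp90ab1 and Hsf1 were not analysed here. The 8 genes are set against the 18193 genes with a probe set of their own. Of these, 15502, all 8 members among them, were bright enough in at least 1 group to be tested.

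The embryos were of the mouse strain B6D2F1. At the 1-cell stage they received a morpholino, a synthetic antisense molecule that binds its target RNA and leaves the gene itself intact, and they were collected at 20 h or 44 h. The targets were Oct4, Sall4 and Nanog, transcription factors of the pluripotency network, and the control morpholino has no match in the mouse. The Oct4 and the Sall4 experiment at 20 h each held the injected group and uninjected embryos, with no control morpholino. At 44 h the Oct4 and Sall4 morpholinos shared 1 uninjected and 1 control morpholino group. The Nanog experiment held uninjected, control morpholino and Nanog morpholino embryos at both times. All embryos, uninjected ones included, were cultured in medium with serum supplement. Each of the 14 groups had 3 Affymetrix arrays, titled as biological replicates. What is not labelled is how many embryos were pooled for an array and whether the 3 came from separate matings, so p-values measure only the spread between these arrays.

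Hsp70 proteins bind short stretches of unfolded protein and release them in cycles driven by ATP. Hsp40 proteins such as Dnajb1 bring the clients and speed the cycle, Hsph1 exchanges the nucleotide, Hsp90 proteins take over clients that are nearly folded, and small heat shock proteins such as Hspb1 hold unfolded proteins without using ATP. Hspa8 is made in nearly every cell at all times, Hspa1a and Hspa1b are the stress-inducible cytosolic forms, and Hspa5, also called BiP, is the Hsp70 of the endoplasmic reticulum. In mouse embryos the inducible Hsp70 genes are known to be among the first to be transcribed when the embryonic genome becomes active.

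Levels are intensities as deposited. The 18 arrays of the Nanog experiment had medians of 193 to 227 and the other 24 arrays medians of 26.1 to 33.3, so no level is compared between these sets. The number of arrays limits the precision. Markers were set against the labelled tissue. In every group, 12 to 15 of 15 preimplantation markers lay above the array median, against 2 to 5 of 13 markers of cumulus and granulosa cells and 1 to 5 of 11 markers of blood and stroma. Fshr, Has2, Ptprc, Dcn, Lum and Hba-a1 had group means below the array median throughout, while Amhr2 (6.71 to 52.9 times the median) and Pecam1 (1.42 to 12.8 times) stood above it in every group. The mRNA of a morpholino's own target need not fall. At 44 h Pou5f1, which encodes Oct4, fell with its morpholino (log2 -0.82, adjusted p = 0.00331), while Sall4 (0.21, adjusted p = 0.708) and Nanog (-0.61, adjusted p = 0.651) did not pass with theirs, and none passed at 20 h. With whole embryos, fewer cells of a type and less RNA per cell cannot be told apart.

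The promoters shown are those of Hspa1a, Hspa1b and Hspa5, the Hsp70 members that rose with the Oct4 morpholino at 44 h. They were picked because they separate the cytosolic from the endoplasmic reticulum form. They are the 250 bases before each gene start, 5′ to 3′ on the gene's strand, from RefSeq on GRCm38.p6. Hspa1a lies on the minus strand at chr17:34972157-34972406, Hspa1b on the minus strand at chr17:34959239-34959488 and Hspa5 on the plus strand at chr2:34771840-34772089. Capitals mark a heat shock element, searched on both strands as GAANNTTC or TTCNNGAA, which overlap where 3 units follow each other, or in Hspa5 the endoplasmic reticulum stress element, searched on both strands as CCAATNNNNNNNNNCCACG, which includes a CCAAT box.
Hspa1a: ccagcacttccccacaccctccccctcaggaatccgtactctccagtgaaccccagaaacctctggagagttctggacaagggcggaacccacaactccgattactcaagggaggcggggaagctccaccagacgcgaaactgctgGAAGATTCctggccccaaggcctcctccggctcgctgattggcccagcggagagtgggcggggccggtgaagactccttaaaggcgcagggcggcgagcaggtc
Hspa1b: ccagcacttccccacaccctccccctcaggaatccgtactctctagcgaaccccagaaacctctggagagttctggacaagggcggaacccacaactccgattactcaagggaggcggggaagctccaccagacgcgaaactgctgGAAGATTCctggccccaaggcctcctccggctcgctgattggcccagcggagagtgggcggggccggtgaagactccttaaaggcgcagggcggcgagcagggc
Hspa5: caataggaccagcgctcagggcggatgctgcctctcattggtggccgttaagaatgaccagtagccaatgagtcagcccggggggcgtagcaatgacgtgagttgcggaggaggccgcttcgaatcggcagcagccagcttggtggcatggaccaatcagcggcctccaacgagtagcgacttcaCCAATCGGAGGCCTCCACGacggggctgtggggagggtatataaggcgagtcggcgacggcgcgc

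The promoters of Hspa1a and Hspa1b were identical at 247 of these 250 positions, and each held 1 heat shock element, 104 to 97 bases before the start. Probe sets for such near-identical copies can catch RNA of either gene, so their 2 signals are not independent of each other and the split between them is uncertain. In Hspa5 the stress element lay 65 to 47 bases before the start. Windows that also reached into the first bases after the start, 300 bases in all, were available for 6 of the members. In these, Hspb1 held 2 heat shock elements, Hsph1 held 3, Hspa5 and Dnajb1 held 0, and the stress element was found in Hspa5 only. In Hsph1, 2 of the 3 matches overlapped as a run of 3 units, a form found in no other of the 6 members. Of 32851 mouse promoter windows of that length, 15.1% held a heat shock element of either form. A run of 3 units was held by 0.603% and the stress element by 0.119%. Promoters of Hspa8, Hsp90aa1, Hsp90ab1 and Hsf1 were not analysed here. A match describes the letters in the window and not a bound site.

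At 44 h, embryos with the Oct4 morpholino carried more of both inducible Hsp70 mRNAs, of the endoplasmic reticulum form Hspa5 and of the exchange factor Hsph1 than embryos with the control morpholino. With limma and an adjusted p under 0.05 over all genes tested, 4 of the 8 members rose and 0 fell, where 5.26% of all genes rose, 6.23% fell and 11.5% changed in either direction. Members had a median log2 change of 0.96 against 0.02 over all genes. Genes bright only on the Nanog arrays are among those tested, so the shares of all genes may be understated here. Called genes were 1781 of 15502 with this filter and 1788 of 10402 with a 75th percentile filter. Where array medians set the cut-off instead, they were 1807 of 14861. The members were chosen with earlier results of these data known. Hspa1a and Hspa1b count separately here although their signals are not independent. Log2 changes throughout are of intensity + 16, which understates the change of dim genes.

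Hspa1a changed most. Its 3 arrays read 324, 86.8 and 144 with the control morpholino and 2492, 2541 and 1538 with the Oct4 morpholino, or 185 ± 124 against 2191 ± 565 (mean ± SD, n = 3 each). Every Oct4 array was above every control array, and the lowest of them stood several times above the highest control array. The log2 change was 3.60 (SE 0.402, 95% interval 2.78 to 4.42, adjusted p = 3.45e-07), or 12.1-fold. Uninjected embryos of the same experiment read 355, 219 and 132, overlapping the control morpholino arrays.

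Hspa1b, the neighbouring copy, read 424, 130 and 444 with the control morpholino and 1627, 2427 and 1498 with the Oct4 morpholino, 333 ± 176 against 1851 ± 503 (n = 3 each). The groups did not overlap here either, although the control arrays were spread more widely. The log2 change was 2.56 (SE 0.701, adjusted p = 0.0143), or 5.90-fold. This call was lost when the model held only the arrays of this experiment (adjusted p = 0.134), without control replicate 2 (0.112) and without Oct4 replicate 2 (0.0558).

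**Figure D1:**
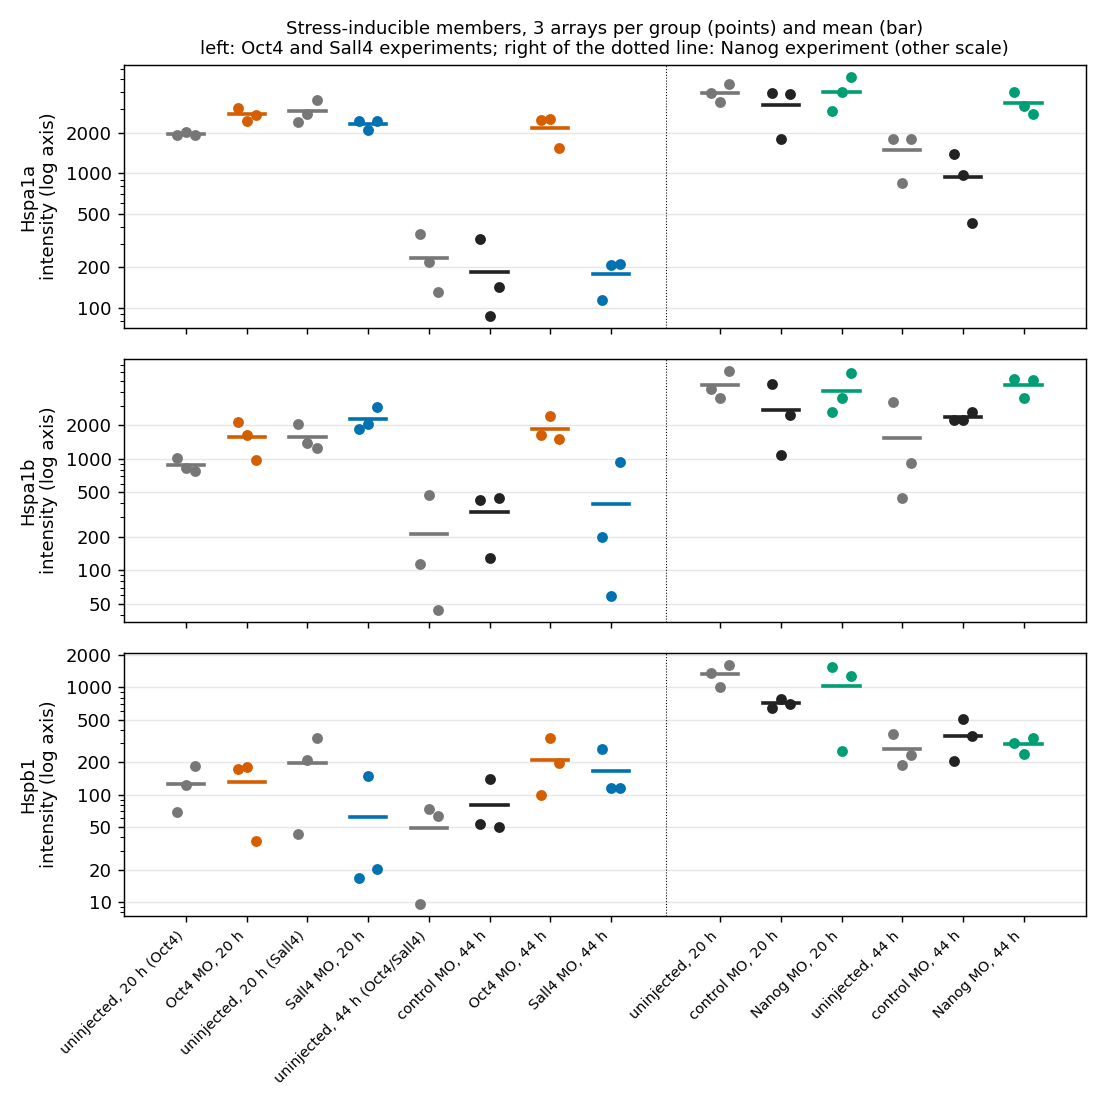
Intensity of the stress-inducible members Hspa1a, Hspa1b and Hspb1 on every array (points, log axis) with the group mean (bar), for the Oct4 and Sall4 experiments on the left and the Nanog experiment, on another scale, on the right of the dotted line. Hspa1a is at 86.8 to 355 in the uninjected, control and Sall4 groups of the Oct4 and Sall4 experiment at 44 h and at 1538 to 2541 with the Oct4 morpholino.

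The small heat shock protein Hspb1 was dim and variable. It read 52.8, 140 and 49.6 with the control morpholino and 99.4, 338 and 198 with the Oct4 morpholino. The groups overlapped, and the log2 change of 1.21 (95% interval -0.17 to 2.59, adjusted p = 0.292) did not pass.

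Hspa5 read 1270, 1139 and 1254 with the control morpholino and 2362, 2701 and 2546 with the Oct4 morpholino, 1221 ± 71.3 against 2536 ± 170 (n = 3 each). All Oct4 arrays lay above all control arrays, and the replicates of each group were close together. The log2 change was 1.04 (SE 0.141, adjusted p = 5.98e-06), or 2.06-fold.

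Hsph1 read 2802, 2849 and 3237 with the control morpholino and 4935, 6203 and 5186 with the Oct4 morpholino, 2963 ± 239 against 5441 ± 672 (n = 3 each). Again no Oct4 array was as low as a control array. The log2 change was 0.87 (SE 0.170, adjusted p = 0.000741), or 1.83-fold.

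The other cytosolic partners did not pass. Hspa8, the constitutive Hsp70, read 7885, 8272 and 7290 with the control morpholino and 7427, 7657 and 6718 with the Oct4 morpholino, and its log2 change of -0.10 has an interval of -0.38 to 0.17. Dnajb1, the Hsp40 partner, changed by -0.28 (-0.71 to 0.14). Hsp90aa1 read 5270, 5364 and 4853 against 4582, 4028 and 4067. All Oct4 arrays of Hsp90aa1 were below the control arrays, but the log2 change of -0.29 (-0.53 to -0.05) had an adjusted p of 0.124. The summed level of the 15 preimplantation markers moved with this comparison, from 29787 to 33175 on the control arrays to 25019 to 26311 on the Oct4 arrays. Sums of the cumulus and of the blood and stroma markers overlapped between these groups, as did the 3′ to 5′ ratios of the Gapdh and beta-actin control probe sets, which read RNA quality. The log2 Gapdh ratio was 1.75 to 1.82 on the control arrays and spread more widely, 1.24 to 3.40, on the Oct4 arrays. The part of the marker shift or of RNA quality in the result was not tested.

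**Figure D2:**
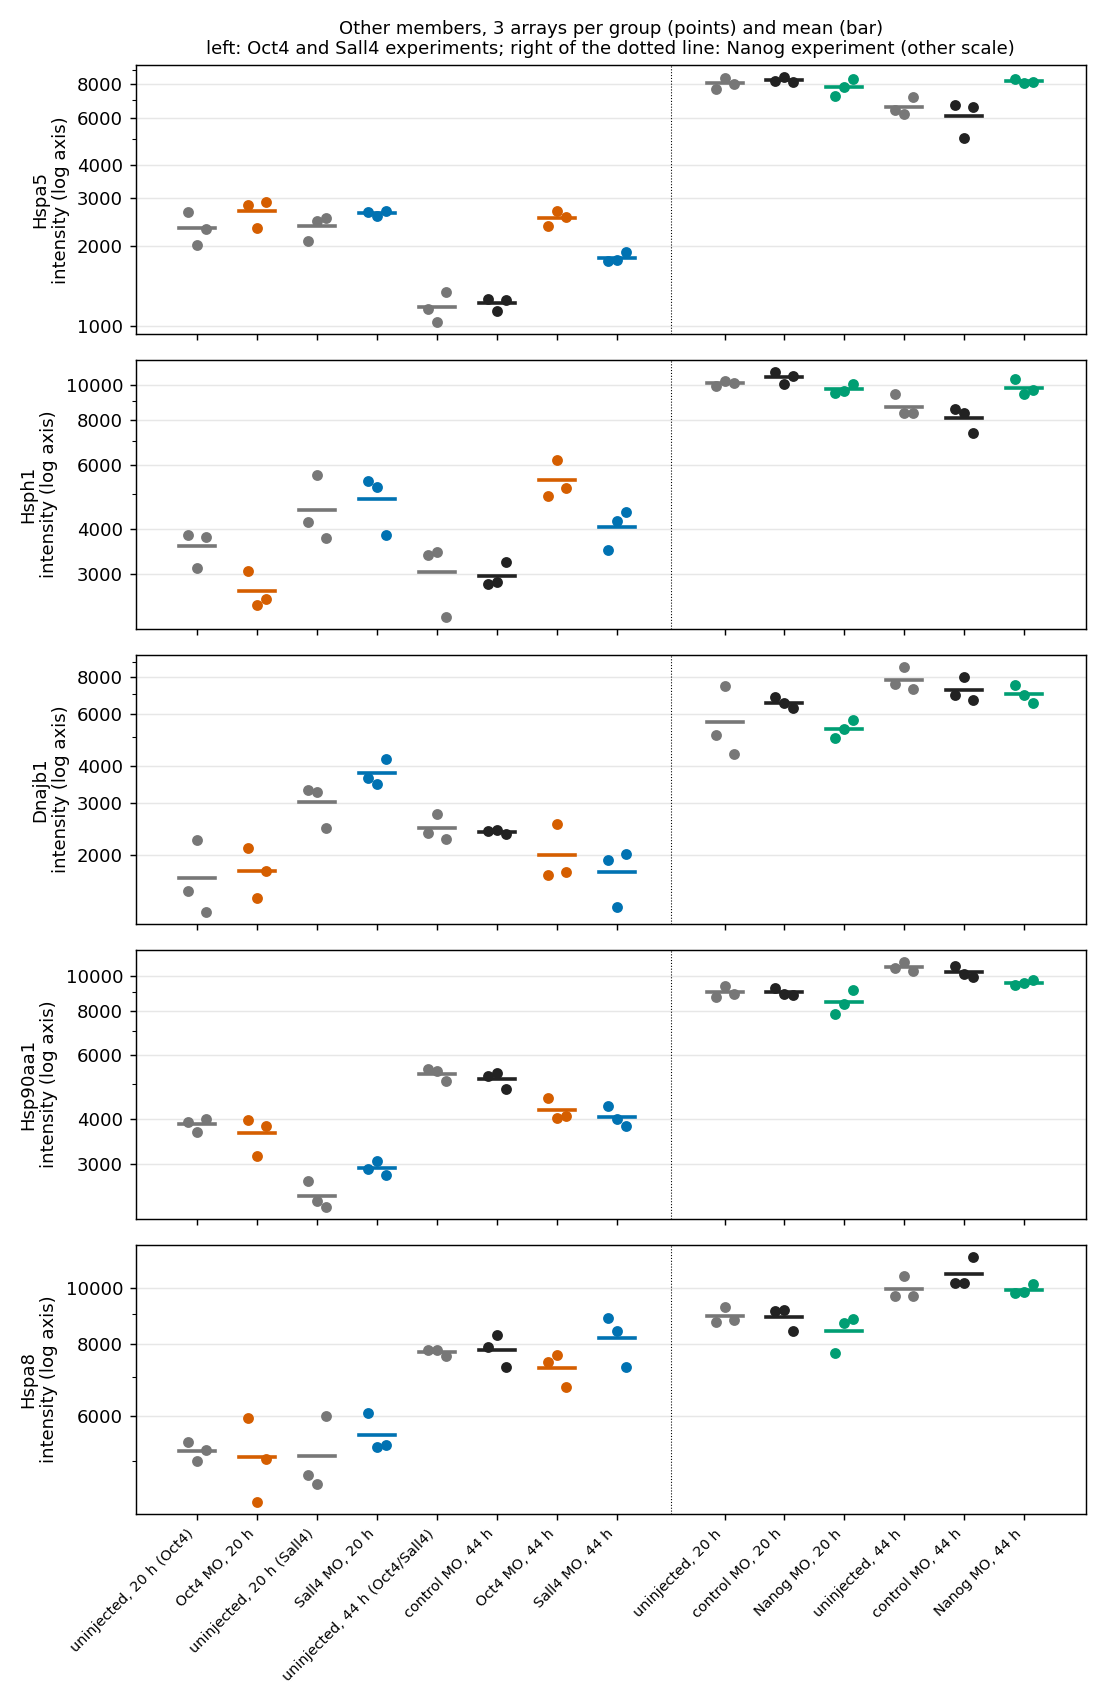
Intensity of Hspa5, Hsph1, Dnajb1, Hsp90aa1 and Hspa8 on every array (points, log axis) with the group mean (bar). Groups are arranged as for Hspa1a, Hspa1b and Hspb1. Hspa5 with the Oct4 morpholino at 44 h is at 2362 to 2701, above the control morpholino arrays at 1139 to 1270, and Hspa8 overlaps between these groups.

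Of the 22 probe sets, 21 were bright enough to be tested, and single probe sets were also fitted among 35355 on the array. For Oct4 against control at 44 h, 8 of the 21 rose and 0 fell, where 3.74% of all probe sets tested rose and 5.11% fell. They were the Hspa1a probe set, all 3 of Hspa1b (log2 2.34, 2.49 and 2.56), both tested ones of Hspa5 (1.04 and 1.45) and both of Hsph1 (0.87 and 0.67). Because 0 fell, no gene could have probe sets called in opposite directions. The 5 probe sets of Hsp90aa1 lay between -0.29 and -0.03, and the 4 of Hspa8 between -0.28 and 0.38.

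**Figure D3:**
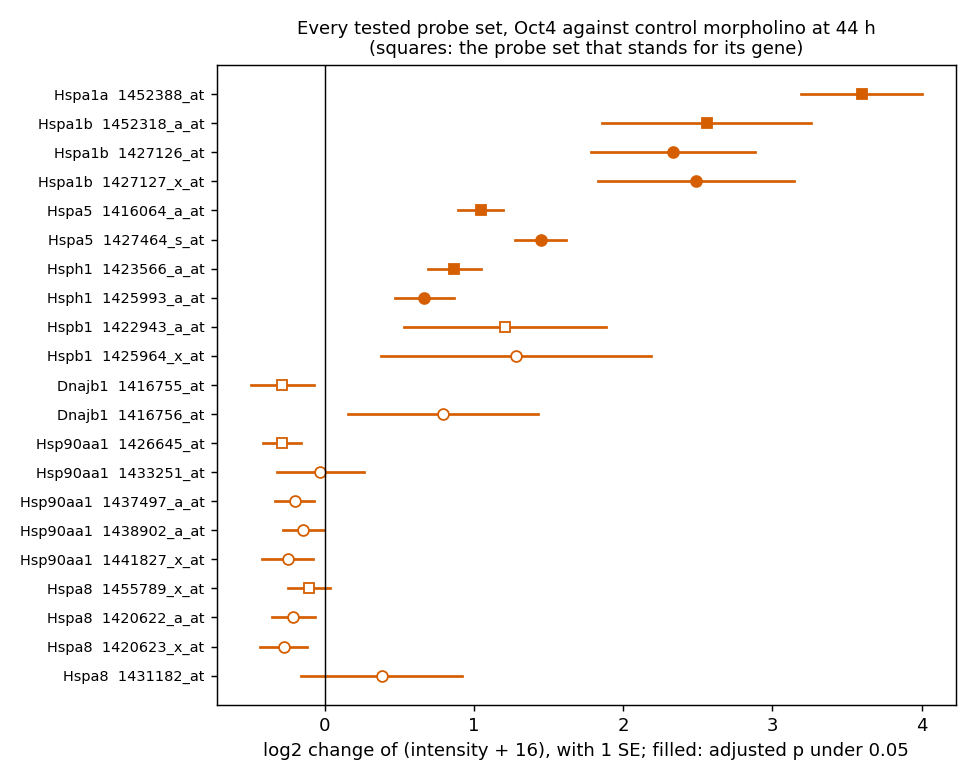
Log2 change with 1 SE (horizontal axis) of each tested probe set of the 8 members, Oct4 against control morpholino at 44 h. Filled marks passed an adjusted p under 0.05 over all probe sets, and squares are the probe sets that stand for their gene. All 8 filled marks lie at 0.67 or above.

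With the Sall4 morpholino at 44 h, Hspa5 was the only member to pass, where 3.92% of all genes changed, 1.8% rising and 2.12% falling. It read 1745, 1771 and 1885 against 1270, 1139 and 1254 in the shared control group, 1800 ± 74.4 against 1221 ± 71.3 (n = 3 each). No array of one group reached into the other, and the log2 change was 0.56 (SE 0.141, adjusted p = 0.0195), or 1.47-fold. The call was lost with the experiment's arrays alone (adjusted p = 0.182), without control replicate 2 (0.0991) or 3 (0.0502), and without Sall4 replicate 2 (0.0652). The summed level of the 13 cumulus and granulosa markers moved with this comparison, from 896 to 1522 on the control arrays to 1524 to 1990 on the Sall4 arrays. Of the 13, 2 lay above the array median in the control group and 3 in the Sall4 group. Amhr2 was above it in both groups, and Fshr and Has2 were below it in both. Which markers carried the shift was not analysed here. The part of this shift in the result was not tested.

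Hspa1a did not follow. Its Sall4 arrays read 114, 208 and 213, within the range of the control arrays, with a log2 change of 0.08 (95% interval -0.74 to 0.90). Hspa1b read 199, 59.4 and 932, a spread that covered the control arrays on both sides. Hsph1 read 3480, 4197 and 4440, all above the control arrays, but its log2 change of 0.44 (0.09 to 0.79) had an adjusted p of 0.159. Hsp90aa1 (-0.35, adjusted p = 0.101) and Dnajb1 (-0.47, adjusted p = 0.239) were lower without passing. For Hsp90aa1, 1 of its 5 probe sets, 1437497_a_at, fell by 0.47 on the log2 scale (adjusted p = 0.0441 over probe sets, where 1.58% fell). Against the uninjected embryos, Hsp90aa1 itself passed (-0.40, adjusted p = 0.0374).

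Both injected groups share the control group, so they were also compared directly. Of the 8 members, 3 were higher with the Oct4 than with the Sall4 morpholino and 0 lower, where 3.68% of all genes were higher, 3.44% lower and 7.12% differed. Hspa1a differed by a log2 value of 3.51 (SE 0.402, adjusted p = 6.92e-07), Hspa1b by 2.88 (SE 0.701, adjusted p = 0.00871) and Hspa5 by 0.49 (SE 0.141, adjusted p = 0.0286). The Oct4 and Sall4 arrays of these 3 genes did not overlap. The preimplantation marker sum did not overlap either, at 25019 to 26311 with the Oct4 and 27149 to 33915 with the Sall4 morpholino, and its part in the result was not tested. With only the arrays of this experiment, Hspa1a kept its call and the other two lost it (adjusted p = 0.129 for Hspa1b and 0.171 for Hspa5). Without Sall4 replicate 2, Hspa1b lost its call too (adjusted p = 0.1004), and Hspa5 lost it without Oct4 replicate 2 or 3 or Sall4 replicate 1 or 2 (0.0677 to 0.0975), under quantile normalization (0.140) and under median centring (0.0638).

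With the Nanog morpholino at 44 h, Hspa1a was the only member to pass, where 5.03% of all genes changed, 3.51% rising and 1.52% falling. It read 1395, 979 and 429 with the control morpholino and 4043, 3183 and 2771 with the Nanog morpholino, 934 ± 484 against 3332 ± 649 (n = 3 each). The groups did not overlap, and the log2 change was 1.95 (SE 0.402, adjusted p = 0.0031), or 3.87-fold. Uninjected embryos read 1788, 852 and 1799, which overlapped the control arrays and lay below the Nanog arrays. Against these the log2 value was 1.22 and did not pass (adjusted p = 0.0542).

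Hspa1b read 2233, 2223 and 2627 in the control group and 5201, 3534 and 5113 with the Nanog morpholino. These arrays did not overlap, but the log2 change of 0.95 has an interval of -0.48 to 2.37, because the model's shared spread for Hspa1b is wide. Hspa5 read 6659, 5032 and 6554 against 8320, 8055 and 8171, again without overlap. Its log2 change of 0.44 (0.15 to 0.73) had an adjusted p of 0.0687. It passed under quantile normalization (0.65, adjusted p = 0.00615), and its second probe set passed among probe sets (0.63, adjusted p = 0.0244, where 2.98% rose). Hsph1 (0.28), Dnajb1 (-0.04), Hsp90aa1 (-0.10) and Hspb1 (-0.18) did not pass.

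Hspa8 was at -0.09 in its brightest probe set and did not pass, but 1 of its other 3, 1431182_at, fell. That probe set read 3135, 4958 and 5615 in the control group and 622, 1655 and 1745 with the Nanog morpholino, a log2 change of -1.85 (adjusted p = 0.0386 over probe sets, where 2.31% fell). Which transcript it reads was not analysed here.

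**Figure D4:**
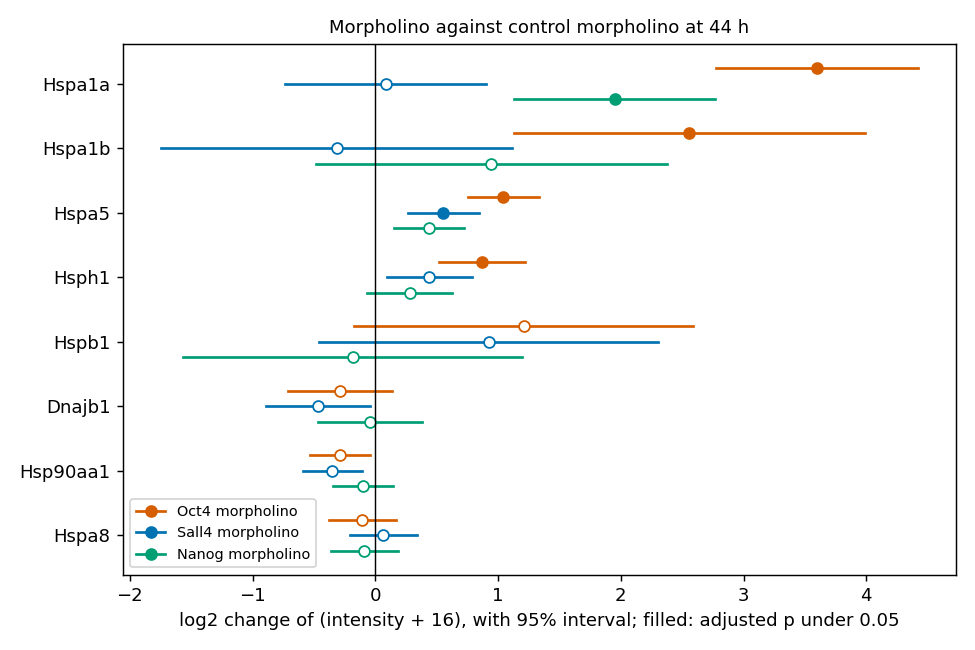
Log2 change with its 95% interval (horizontal axis) of each member at 44 h for the Oct4, Sall4 and Nanog morpholinos against the control morpholino of the same experiment. Filled marks passed an adjusted p under 0.05. Hspa1a is filled for Oct4 (3.60) and Nanog (1.95) and lies at 0.08 for Sall4. The Nanog values come from arrays on another scale.

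Whether the effects themselves differed between experiments was tested as a difference of differences. Oct4 minus Nanog at 44 h called 0 of 8 members by limma, where 2.15% of all genes were called, and 3 members had an unadjusted p under 0.05. Hspa1a was at 1.65 (95% interval 0.49 to 2.81, adjusted p = 0.129). It passed without control replicate 1 of the Oct4 and Sall4 experiment (2.12, adjusted p = 0.0425) or without control replicate 3 of the Nanog experiment (2.12, adjusted p = 0.0383). Hspa5 was at 0.61 (0.20 to 1.01, adjusted p = 0.109). Sall4 minus Nanog also called 0, where 0.755% were called, with 1 unadjusted p under 0.05, that of Hspa1a (-1.87, -3.03 to -0.71, adjusted p = 0.121). So Hspa1a passed with Oct4 and with Nanog and not with Sall4, but only the direct contrast of Oct4 with Sall4 passed as a difference.

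At 20 h, no member passed in any comparison. Limma called 0 of 8 for Oct4 against uninjected (2.01% of all genes, 1 member with an unadjusted p under 0.05), 0 for Sall4 against uninjected (0.239%, 2 members), 0 for Nanog against control (0.619%, 0 members) and 0 for control against uninjected (0.0903%, 0 members). Hspa1a was bright in every group at that time. In the Oct4 experiment it read 1920, 2028 and 1936 in uninjected embryos and 3077, 2447 and 2712 with the Oct4 morpholino. Those arrays did not overlap, and the log2 change was 0.48 (-0.34 to 1.30, adjusted p = 0.873). In the Sall4 experiment it read 2424, 2757 and 3520 uninjected and 2457, 2103 and 2431 with the morpholino, which overlapped. Hsph1 was lower with the Oct4 morpholino, at 3051, 2462 and 2547 against 3842, 3106 and 3786, with a log2 value of -0.41 (-0.76 to -0.06, adjusted p = 0.311).

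Injection alone was read from control against uninjected embryos at 44 h, and 0 of 8 members passed in either set by limma (0.103% of all genes in the Oct4 and Sall4 experiment, 0.445% in the Nanog experiment, with 0 members at an unadjusted p under 0.05 in both). Hspa1a was at -0.40 (-1.22 to 0.42) in the first and -0.73 (-1.55 to 0.09) in the second. Hspa1b was at 0.98 (-0.44 to 2.41) and 1.09 (-0.34 to 2.51). The control and uninjected arrays of Hspa1b overlapped in both sets.

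The Oct4 effect at 44 h was then set against that at 20 h, with uninjected embryos as the reference at both times because the 20 h experiment has no control morpholino. Of the 8 members, 3 had a larger effect at 44 h and 0 a smaller one, where 3.6% of all genes had a larger one, 2.05% a smaller one and 5.65% differed. The difference was 2.72 for Hspa1a (SE 0.568, adjusted p = 0.00356), 1.27 for Hsph1 (SE 0.240, adjusted p = 0.00159) and 0.88 for Hspa5 (SE 0.199, adjusted p = 0.00696). For Hsph1 the 2 effects had opposite signs, -0.41 at 20 h and 0.86 at 44 h. Preimplantation marker sums did not overlap at 44 h, at 32563 to 33804 uninjected and 25019 to 26311 with the Oct4 morpholino. Blood and stroma sums did not overlap at 20 h, at 109 to 150 uninjected and 156 to 213 with the Oct4 morpholino. The part of either in the result was not tested. The 20 h and 44 h embryos belong to separately labelled experiments, so time and experiment cannot be told apart here. Hspa5 lost its call with only the arrays of these experiments (adjusted p = 0.0604), and Hspa1b passed without uninjected replicate 2 at 44 h (3.59, adjusted p = 0.0281).

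For Sall4 the same contrast called 1 member, Hsp90aa1, with a difference of -0.66 (SE 0.169, adjusted p = 0.0428), where 1.5% of all genes differed, 0.658% upward and 0.845% downward. Of all calls, 43.8% were upward, a share that became 57.1% under quantile normalization and 57.2% under median centring. Its arrays read 2692, 2360 and 2275 uninjected and 2902, 3060 and 2791 injected at 20 h, then 5502, 5445 and 5081 uninjected and 4334, 4005 and 3820 injected at 44 h. The injected arrays were the higher ones at 20 h and the lower ones at 44 h, with no overlap at either time. The call was lost under quantile normalization, median centring, a pseudocount of 1, the mean of all probe sets, the experiments' arrays alone, and on leaving out any 1 of 10 of the 12 arrays. Of the 12 fits with an array left out, it held without uninjected replicate 1 at 20 h (adjusted p = 0.0301) and without Sall4 replicate 1 at 44 h (0.0404). It also held in 5 of the 10 other settings. Hspb1 passed only without uninjected replicate 1 at 20 h (3.85, adjusted p = 0.0333) or Sall4 replicate 2 at 20 h (3.85, 0.0401). Nanog, whose contrast lies within 1 experiment, called 0 (0.819% of all genes; 2 members with an unadjusted p under 0.05), with Hspa1a at 1.57 (0.41 to 2.73, adjusted p = 0.234).

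Change over time could be read within the Nanog experiment. In uninjected embryos Hspa1a, Hspa1b and Hspb1 fell from 20 h to 44 h. Of the 8 members, 3 passed as lower and 0 as higher, where 16.4% of all genes fell, 9.46% rose and 25.8% changed. Hspa1a went from 3937, 3410 and 4592 to 1788, 852 and 1799 (log2 -1.49, SE 0.402, adjusted p = 0.00568). Hspa1b went from 4218, 3546 and 6138 to 3214, 443 and 923 (-2.02, SE 0.701, adjusted p = 0.0315), and Hspb1 from 1368, 1004 and 1614 to 369, 187 and 235 (-2.29, SE 0.677, adjusted p = 0.0112). For all 3 genes the 44 h arrays lay below the 20 h arrays. Replicate 2 at 44 h had the lowest level of each, and without it 0 of the 3 passed by limma (adjusted p = 0.0624 for Hspa1a, 0.218 for Hspa1b and 0.0503 for Hspb1). Hspa1b also lost its call without uninjected replicate 1 or 3 at 20 h or replicate 3 at 44 h (0.0629 to 0.109). The summed level of the 11 blood and stroma markers moved with this comparison, from 1640 to 2649 on the 20 h arrays to 3236 to 4298 on the 44 h arrays. In each group 4 of the 11 lay above the array median. Pecam1 was above it in both groups, and Ptprc, Dcn, Lum and Hba-a1 were below it in both. Which markers carried the shift was not analysed here. The part of this shift in the result was not tested, and sums of the other 2 marker lists overlapped.

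Hspa8, Hsp90aa1 and Dnajb1 did not fall with them. Hspa8 went from 8746, 9284 and 8796 to 9706, 10511 and 9696, with no overlap and a log2 change of 0.16 (-0.12 to 0.43). Hsp90aa1 went from 8731, 9366 and 8906 to 10499, 10909 and 10294 (0.23, -0.01 to 0.47), and 2 of its 5 probe sets passed as higher among probe sets (0.48 and 0.60, where 10.1% rose). Dnajb1 was at 0.50 (0.08 to 0.92, adjusted p = 0.075) and passed without replicate 2 at 20 h (0.72, adjusted p = 0.0144). Under quantile normalization Dnajb1 (0.77) and Hsp90aa1 (0.43) passed as higher and Hspa5 as lower (-0.43). Of the other 3 probe sets of Hspa8, 2 passed as higher among probe sets: 1420623_x_at (0.48, adjusted p = 0.0273) and 1431182_at, which rose from 623, 1473 and 830 to 5043, 6555 and 5223 (2.59, adjusted p = 0.000547). With the mean of its probe sets Hspa8 passed as higher (0.89, adjusted p = 9.01e-05), so its call depends on the probe set read.

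With the control morpholino, 2 of 8 members fell over time and 0 rose, where 16.3% of all genes fell, 7.25% rose and 23.5% changed. Of all calls, 30.8% were higher, a share that became 41% under quantile normalization. Hspa1a went from 3949, 1802 and 3860 to 1395, 979 and 429 (-1.83, SE 0.402, adjusted p = 0.000955). Hspa5 went from 8228, 8471 and 8165 to 6659, 5032 and 6554 (-0.46, SE 0.141, adjusted p = 0.0166), and neither gene's arrays overlapped. The Hspa5 call was lost without replicate 2 at 44 h (adjusted p = 0.143) and with the mean of all probe sets (0.0711). Hspa1b, at 4663, 1089 and 2472 and then 2233, 2223 and 2627, had a log2 change of 0.02 (-1.41 to 1.45). The blood and stroma sum again did not overlap, at 1825 to 2611 and then 3370 to 4233. Neither did the log2 ratio of 3′ to 5′ beta-actin probe sets, at -0.46 to 0.03 and then 0.07 to 0.18. The part of either in the result was not tested. Under quantile normalization Hspa8 (0.59) and Hsp90aa1 (0.46) passed as higher and Hsph1 as lower (-0.55). With the mean of all probe sets Hspa8 (0.51, adjusted p = 0.0191) and Hsp90aa1 (0.50, adjusted p = 0.00122) also passed as higher. Among single probe sets of Hsp90aa1, 1437497_a_at (0.42, adjusted p = 0.0204) and 1441827_x_at (0.96, adjusted p = 9.4e-05) passed as higher. With the experiment's arrays alone Hsph1 passed as lower (-0.38, adjusted p = 0.0325).

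With the Nanog morpholino 0 members passed over time by limma, where 20.1% of all genes changed, and 1 had an unadjusted p under 0.05. This was Hspb1 (-1.41), which passed without Nanog morpholino replicate 2 at 20 h (-2.21, adjusted p = 0.0271). Hspa1a stayed bright, from 2925, 3996 and 5200 to 4043, 3183 and 2771 (-0.26, -1.08 to 0.56). The groups overlapped. Under quantile normalization Dnajb1 (0.70), Hsp90aa1 (0.43) and Hspa8 (0.54) passed as higher. Among single probe sets of Hspa8, 1420622_a_at (0.40, adjusted p = 0.0469) and 1420623_x_at (0.45, adjusted p = 0.0479) passed as higher. The 3 time courses are shown side by side and were not tested against each other except for the contrast of Nanog with control given above.

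**Figure D5:**
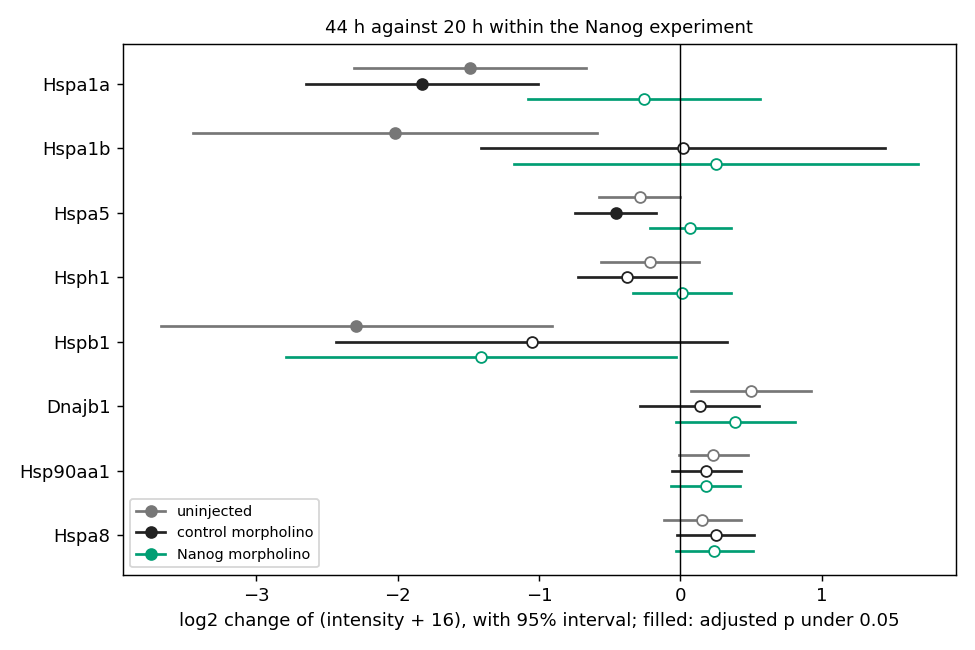
Log2 change from 20 h to 44 h with its 95% interval (horizontal axis) of each member in uninjected, control morpholino and Nanog morpholino embryos of the Nanog experiment. Filled marks passed an adjusted p under 0.05. Hspa1a is at -1.49, -1.83 and -0.26 in that order.

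The other genes of the chaperone network were described from 5 lists. With the Oct4 morpholino at 44 h, 2 of 22 other cytosolic and nuclear chaperones rose and 1 fell, near the 5.26% and 6.23% of all genes. Hspa2, a further Hsp70 known best from the testis, rose by 2.96 (SE 0.265, adjusted p = 5.07e-09), Hspb3, a small heat shock protein, rose by 0.86, and Dnajc2, a ribosome-bound Hsp40, fell by 0.55 on the log2 scale. Among 6 heat shock factors and regulators, Hsbp1, which binds heat shock factor 1 and holds it back, fell by 2.24 (SE 0.448, adjusted p = 0.000978). Of 31 genes of the endoplasmic reticulum list, 2 rose and 0 fell, a share of rises near that of all genes: Ern1, a sensor of the unfolded protein response, by 1.02 (adjusted p = 0.00694) and Dnajc3, an inhibitor of the kinase arm of that response, by 0.82 (adjusted p = 0.0333). Of 19 cochaperones and 11 mitochondrial chaperones, 0 passed by limma, with 3 and 2 at an unadjusted p under 0.05.

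With the Sall4 morpholino, where 1.8% of all genes rose and 2.12% fell, the lists gave 1 or 0 calls in each direction. Hspa2 rose by 1.13 (adjusted p = 0.0113) as 1 of 22, Cdc37l1, a relative of an Hsp90 partner, by 1.25 as 1 of 19, and Ern1 by 1.49 (adjusted p = 0.000639). Pdia4, a disulfide isomerase of the endoplasmic reticulum, fell by 1.86 on the log2 scale (adjusted p = 0.00191), so the 31 genes of that list gave 1 rise and 1 fall. By limma, 12 of these 31 had an unadjusted p under 0.05, with a median log2 change of 0.13 against -0.02 over all genes. The Oct4 and Nanog morpholinos at 44 h each gave 8 of 31, with medians of 0.17 against 0.02 and 0.21 against 0.05. The share of all genes with such a p is not given here. Hspa2 differed between the Oct4 and Sall4 morpholinos by 1.83 (adjusted p = 3.26e-05). With the Nanog morpholino, where 3.51% of all genes rose and 1.52% fell, the lists again gave 1 or 0 calls in each direction. Ppp1r15a, which directs a phosphatase that ends the translation block of the stress response, rose by 1.44 (adjusted p = 0.0316). Chordc1, an Hsp90 cochaperone, and Clpx, a mitochondrial unfoldase, each fell by 0.87 on the log2 scale (adjusted p = 0.00747 and 0.0231). No gene of the other cytosolic list and no heat shock factor passed there by limma, with 4 and 1 at an unadjusted p under 0.05.

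Over time in uninjected embryos, falls outnumbered rises in 3 lists, as they did over all genes (16.4% fell and 9.46% rose): 12 against 1 of 31 in the endoplasmic reticulum list, 6 against 1 of 19 among cochaperones and 6 against 2 of 22 among other cytosolic chaperones. Ppp1r15a (-2.59), Sel1l (-2.53), which serves the degradation of misfolded proteins, and the pseudokinase gene Trib3 (-2.29) fell, and the stress sensor Atf6 (2.23) rose. Bag4 (-2.10), Fkbp5 (-2.04), Cdc37l1 (-1.77) and Ahsa2 (-1.09) fell among the cochaperones. Dnajb4 (-4.54), Hspa4l (-3.76), Dnajb5 (-2.16), Hspa12a (-1.60) and Dnaja4 (-1.36) fell among the cytosolic chaperones. Among the factors, Hsf2 rose by 3.68 (SE 0.733, adjusted p = 0.00028) and its binding partner Hsf2bp changed by -2.19. Of 11 mitochondrial chaperones, 3 were higher and 0 lower: Grpel1 (0.77), Hspe1 (0.76) and Hspd1 (0.34), of which Hspe1 and Hspd1 form the subunits of the mitochondrial folding chamber.

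Across the 42 arrays, after centring the 18 and the 24 arrays separately, Hspa1a varied with Hspa5 (Pearson r = 0.847) and Hspa1b (0.797) and against Hspa8 (-0.764) and Hsp90aa1 (-0.686). Among 15501 other genes, those most like Hspa1a were Dusp1 (r = 0.918), Irf1 (0.910), Egr1 (0.901), Brdt (0.893) and Pole4 (0.890), of which Dusp1, Irf1 and Egr1 are genes that many stimuli switch on quickly. Egr1 was at 49.8 ± 60.4 with the control morpholino at 44 h and 725 ± 154 with the Oct4 morpholino (mean ± SD, n = 3 each). In the Oct4 experiment at 20 h it was at 940 ± 300 in uninjected embryos and 1201 ± 199 with the Oct4 morpholino. The mean with the Oct4 morpholino at 44 h was thus below both means at 20 h. The genes most like Hspa8 were Psmd7 (0.930), Rpl19 (0.922), Mfsd5 (0.918), Arpp19 (0.911) and Fau (0.910), which include a proteasome subunit and genes for ribosomal proteins. These values describe arrays that share the same groups, the step between 20 h and 44 h and the same depth of signal, and carry no test.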

How the data were processed

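Embryo RNA was isolated with a PicoPure kit, amplified with NuGEN WT-Ovation reagents and hybridised with biotin label, per the labels' protocols. The deposited table gives 1 intensity per probe set and array on a linear scale. The authors' normalization of these intensity values is not given in the sources. Samples were grouped by their titles, and no pair of arrays correlated above r = 0.963. In the platform annotation 34945 probe sets carry 1 symbol, 932 several (not used) and 64 are controls. A gene was read from its brightest probe set on average. Values were log2-transformed after adding 16. A gene was tested if its log2 mean in at least 1 group exceeded that of the table's median, an intensity of 71.15. That value lies below the medians of all 18 Nanog arrays and above those of the other 24. A gene could therefore be tested while bright on the Nanog arrays only. One limma 3.58.1 model (R 4.3.3) held all 42 arrays with a mean per group (28 residual degrees of freedom). It gave 13 comparisons within experiments and 5 differences between effects, two-sided, with Benjamini-Hochberg adjustment over all genes tested and a threshold of 0.05. An exact permutation test of 3 against 3 arrays cannot go below p = 0.1, so the calls lean on the spread shared by the model. Deviations of same-numbered uninjected and control morpholino arrays of the Nanog experiment at 20 h correlated at 0.112 to 0.125. By this measure, though not by the labels, their numbers may pair. Other groups did not reach 0.1 in every pair. Single same-numbered pairs of that experiment did, at 0.138 (control and Nanog morpholino, 20 h) and 0.135 (uninjected and control morpholino, 44 h). The fit was tested on simulated data. All members were named; genes of the 5 chaperone lists were named where they passed in a 44 h comparison with control morpholino or over time in uninjected embryos, at most 5 per list, and the 5 genes most correlated with Hspa1a and Hspa8. The members and lists were chosen with earlier results of these data known. Alternatives were pseudocounts of 1 and 64, other filters, quantile normalization, median centring, other probe sets and their mean, uninjected embryos as reference, the experiment's arrays alone, a replicate block and leaving out each array. Promoters came from RefSeq and were searched with Python 3.11.15; figures used numpy 2.4.6 and matplotlib 3.10.9.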

Additional observations from a re-analysis of the deposited data

Results flagged for a closer look

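Of the effects set against each other between times, 4 differed by the test of the difference itself (limma, adjusted over all genes). The Oct4 effect against uninjected embryos was larger at 44 h than at 20 h by a log2 value of 2.72 for Hspa1a (adjusted p = 0.00356), 0.88 for Hspa5 (0.00696) and 1.27 for Hsph1 (0.00159). The Sall4 effect was lower at 44 h than at 20 h by a log2 difference of -0.66 for Hsp90aa1 (adjusted p = 0.0428). The Oct4 and Sall4 effects at 44 h share the same uninjected arrays. The 20 h and 44 h embryos of these contrasts belong to separately labelled experiments, so time and experiment cannot be told apart.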

How the results depend on the processing

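Of 18 member calls over all comparisons, 7 held in every setting tried, 10 in every setting other than a left-out array, 9 whichever array was left out and 12 with the experiment's arrays alone. Counts of called members moved as follows, and the cause was not tested. Sall4 against control at 44 h (1 called) gave 2 with a pseudocount of 64, 0 with the experiment alone, 2 against uninjected embryos and 0 to 1 with an array left out. Oct4 against Sall4 (3 called) gave 1 with the experiment alone and 1 to 3 with an array left out. Nanog against control at 44 h (1 called) gave 2 with a pseudocount of 64, 2 with a 75th percentile filter, 2 under quantile normalization, 2 with probe sets averaged and 0 against uninjected embryos, and 1 whichever array was left out. Change over time in uninjected embryos (3 called) gave 6 under quantile normalization, 5 with probe sets averaged and 0 to 4 with an array left out; with control morpholino (2 called) it gave 5 under quantile normalization and 1 to 2, and with Nanog morpholino (0 called) 3 under quantile normalization and 0 to 1. Oct4 minus Nanog at 44 h (0 called) gave 0 to 1 with an array left out, and the Oct4 effect at 44 h minus 20 h (3 called) 3 to 4. The Sall4 effect at 44 h minus 20 h (1 called) gave 0 with a pseudocount of 1, 0 under quantile normalization, 0 under median centring, 0 with probe sets averaged, 0 with the experiments alone and 0 to 2 with an array left out. Read from probe set 1433251_at, Hsp90aa1 reversed in that contrast (0.52, adjusted p = 0.712). With the replicate number as a block, Oct4 against control at 44 h again gave 4 called members, and no count or member call changed in any of the 18 comparisons. Outside the pair of groups named with the processing, not every same-numbered pair of arrays correlated above 0.1 in its deviations, and the numbers were not taken as pairing; 5 of 42 same-numbered pairs were above 0.1 (range -0.05 to 0.14), and 0 of 84 other pairs were (-0.10 to 0.06). Hspa1b and Hspb1 had the widest intervals of the members.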
